A study of Mus musculus with 16 samples.

Results

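The IL-12 family genes described here were the 5 mouse genes Il12a, Il12b, Il23a, Il27 and Ebi3, found by gene symbol among the 55487 genes of the count table. 4 of them were tested. Il12a did not exceed 1 CPM (counts scaled to library totals) in any sample and was left out of the test, so it is described by its values. RNA was sequenced from bone marrow-derived macrophages (BMDMs) of WT Balb/c mice, 8 weeks old, in 16 samples. The cells were treated with medium conditioned by 4T1 cells, a mouse mammary tumor line, to ask how soluble factors from tumor cells change macrophage gene expression and how inhibitors of JAK and IKK kinases modify that change.

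The 6 groups shared strain, age, genotype and cell type. DMEM (n = 2) was medium without tumor factors. DMEM + Rux (n = 3) had ruxolitinib, an inhibitor of the JAK1 and JAK2 kinases, at a dose that the labels do not give. CM (n = 3) was 4T1 conditioned medium. CM + Rux (n = 3, labelled 4 h) was conditioned medium with 0.5 µM ruxolitinib. CM + Rux 2 h (n = 2) carried the same treatment with a 2 h label. The study's methods give 4 h of treatment before RNA isolation and describe no 2 h treatment for RNA. They do describe 2 h of serum starvation before conditioned medium, with ruxolitinib added during that pre-treatment. What the 2 h label refers to is not known. CM + Rux + IKK-16 (n = 3) added 0.8 µM IKK-16, an inhibitor of the IKK kinases that activate NF-κB. There was no group with IKK-16 and without ruxolitinib, so the IKK-16 comparison describes cells that also received ruxolitinib. The labels do not say whether replicates came from separate mice, and the p-values measure the spread between these samples.

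The IL-12 family cytokines are secreted heterodimers, each made of an alpha chain and a beta chain, and the subunits are shared between cytokines. Il12b encodes the beta chain of both IL-12, with the product of Il12a, and IL-23, with the product of Il23a. Ebi3 encodes the beta chain of IL-27, with the product of Il27, and has also been assigned to IL-35, with the product of Il12a. Macrophages and dendritic cells make these subunits after activation of NF-κB and IRF factors. IL-12 drives interferon-gamma production by T and NK cells, IL-23 sustains IL-17-producing T cells, and IL-27 has both activating and restraining effects on T cells. RNA of the subunits, and not the secreted proteins, was measured.

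The 250 bases upstream of the RefSeq transcription start are shown for the beta chain genes Il12b and Ebi3, because the beta chains are the subunits shared between cytokines. The order of the groups by mean level differed between these genes, while their log2 levels correlated over the 16 samples (Pearson's r = 0.87). Any link of the motifs to the levels was not tested. Both are on the + strand of GRCm38.p6, Il12b at chr11:44399813-44400062 and Ebi3 at chr17:55952373-55952622. Capitals mark exact matches to the kappa B motif GGGNNNNNCC, a pattern for sequences bound by NF-κB.
Il12b: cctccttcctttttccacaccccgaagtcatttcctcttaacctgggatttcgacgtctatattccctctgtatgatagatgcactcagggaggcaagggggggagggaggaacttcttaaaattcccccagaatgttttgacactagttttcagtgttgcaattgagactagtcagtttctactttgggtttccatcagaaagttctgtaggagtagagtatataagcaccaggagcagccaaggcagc
Ebi3: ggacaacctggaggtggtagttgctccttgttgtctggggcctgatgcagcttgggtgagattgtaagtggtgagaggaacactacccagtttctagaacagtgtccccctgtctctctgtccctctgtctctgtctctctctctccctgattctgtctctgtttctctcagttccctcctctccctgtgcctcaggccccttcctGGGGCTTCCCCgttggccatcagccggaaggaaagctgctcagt

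In the Ebi3 window the kappa B matches lay between 44 and 34 bases before the start, overlapped each other and were found on both strands. No exact match to this kappa B pattern was in the Il12b window. RefSeq listed 2 start sites for Il12a, and the window before the second held overlapping kappa B matches between 113 and 103 bases before it. The motif is short and common, and 45.8% of 32851 promoter windows of the same length held it. None of the 4 windows held an exact match to the other motifs, which were searched on both strands. These were the STAT-binding GAS motif TTCNNNGAA (in 7.02% of all windows), the IRF-binding ISRE motif GAAANNGAAA (2.98%), the AP-1 motif TGANTCA (6.75%) and the TATA box letters TATAAA (12.4%). These matches describe letters in the windows and are not measured binding sites. Only exact matches were counted, so a window without a match can still hold a variant of a motif. In the Il12b window, the letters aaattccccc and tatataag depart from the kappa B and TATA patterns and were not counted.

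All coordinates of the genes are those of the count table, on GRCm38. The beta chain gene Il12b (ENSMUSG00000004296) lies at chr11:44400063-44414033 on the + strand, and Ebi3 (ENSMUSG00000003206) at chr17:55952640-55957022 on the + strand. The alpha chain gene Il12a (ENSMUSG00000027776) lies at chr3:68690644-68698547 on the + strand. Il23a (ENSMUSG00000025383) is at chr10:128296139-128298752 and Il27 (ENSMUSG00000044701) at chr7:126589010-126594941, both on the − strand. Il27 overlaps Apobr and Ebi3 overlaps Gm16712, in each case on the opposite strand, and the authors counted reads by strand. Gm16712 had 492 counts over the 16 samples. Apobr had 83710 counts and Il27 1401, and Il27 counts were between 0.234% and 5.38% of those of Apobr in a sample. Apobr was between 118 and 209 CPM in all samples, highest on average in DMEM. The part of Apobr reads in the values of Il27 was not tested.

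Gene-assigned counts ranged from 18449388 to 46215853 per sample. A gene with 0 counts in a sample could have been missed up to a level of 3 counts, which is 0.0726 to 0.175 CPM depending on the sample, and this limit covers counting error only. The macrophage identity of the samples was checked with 6 markers, of which 6 exceeded 1 CPM in every group, with a summed level of 5300 to 7100 CPM. T and NK cell markers summed to at most 0.0552 CPM, B cell markers to at most 0.233 CPM and neutrophil markers to at most 3 CPM in any sample. In bulk samples, fewer cells of a type and less RNA per cell cannot be told apart.

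In DMEM, the members were at very different levels. Per kilobase of exon, which allows genes to be compared with each other, mean Ebi3 was 46.9 CPM per kb and mean Il27 was 0.573 CPM per kb, while Il12a, Il12b and Il23a had at most 2 counts in either DMEM sample. In CM, the mean per kilobase was 125 for Ebi3, 4.8 for Il23a, 4.55 for Il12b, 3.54 for Il27 and 0.118 for Il12a. In CM + Rux the means were 124 for Ebi3, 24.5 for Il12b, 9.53 for Il23a, 5.44 for Il27 and 0.313 for Il12a. Il12b and Il23a were thus at like levels in CM, where their means differed by less than the spread of either, and Il12a was the lowest member in both groups. From here on levels are normalized CPM, which are not divided by length.

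**Figure D1:**
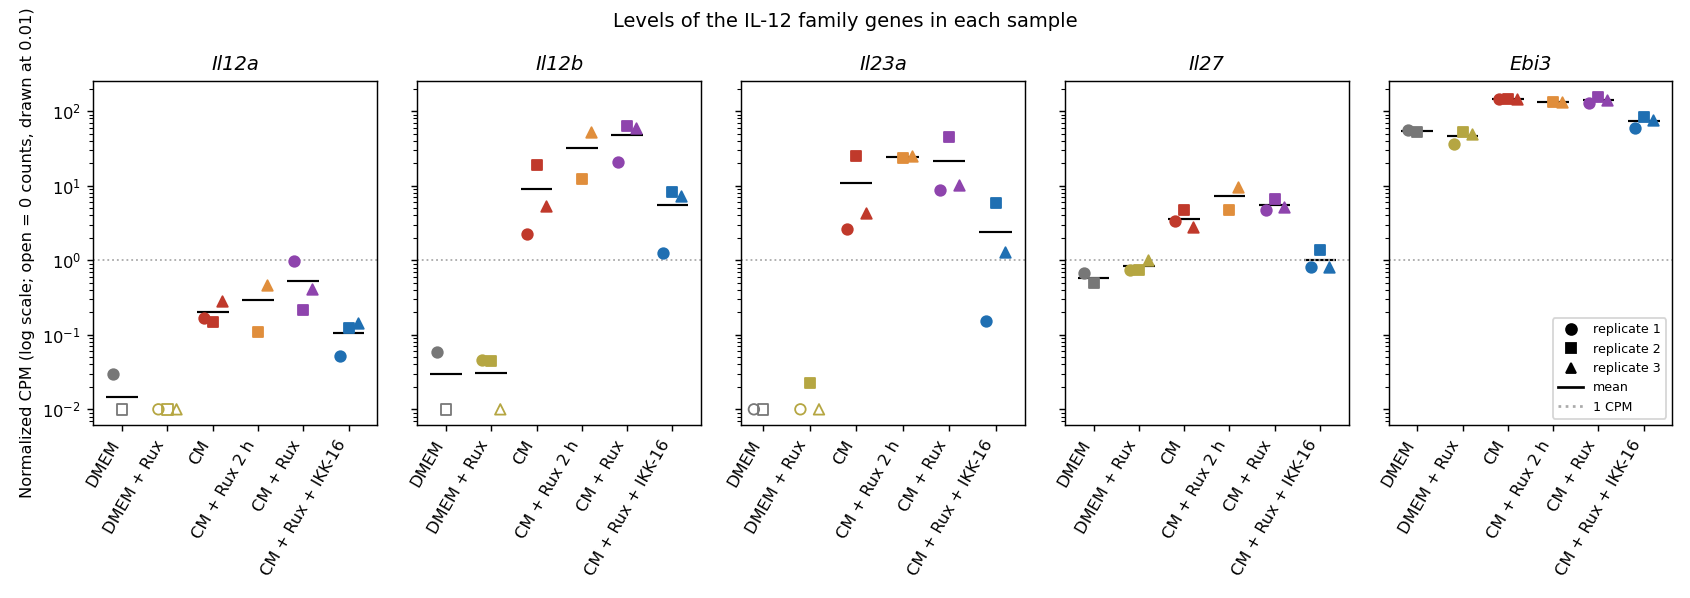
Normalized CPM (log scale) of the 5 IL-12 family genes in each of the 16 samples, by group; symbols give the replicate number, black lines the group mean, open symbols samples with 0 counts drawn at 0.01, and the dotted line 1 CPM. Il12b and Il23a spread widely in CM, CM + Rux and CM + Rux + IKK-16, while the 2 h samples lie close for Il23a (23.5 and 25.1) and apart for Il12b (12.3 and 51.9), and Il12a stays under 1 CPM in every sample.

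Tumor conditioned medium raised all 4 tested members. As background, CM gave a higher call to 20.9% of the 12372 genes tested and a lower call to 24.1%, where a call needs an adjusted p under 0.05 and a log2 fold change beyond 0.5 (edgeR quasi-likelihood test, Benjamini-Hochberg adjustment over all genes tested). Il12b, the beta chain shared by IL-12 and IL-23, had 2 and 0 counts in the DMEM samples and 2.22, 19.3 and 5.33 CPM in CM. Every CM sample exceeded both DMEM samples, and the mean of CM was at least 73-fold higher than the level of 3 counts in DMEM (adjusted p = 0.0023). The CM samples themselves differed widely from each other, with replicate 2 the highest, and without it the CM mean was 3.78 CPM and the bound 30.8-fold.

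Il23a, the alpha chain of IL-23, had 0 counts in both DMEM samples and 2.61, 25.4 and 4.35 CPM in CM. The mean of CM was at least 87.9-fold higher than the level of 3 counts (adjusted p = 0.0052). As with Il12b, replicate 2 was the highest CM sample, and without it the CM mean was 3.48 CPM and the bound 28.4-fold. Il27, the alpha chain of IL-27, was 0.679 and 0.491 CPM in DMEM and 3.39, 4.69 and 2.77 CPM in CM. The groups did not overlap, and the log2 fold change was 2.61 (SE 0.4, adjusted p = 6.4e-05), a 6.1-fold increase. Apobr, on the opposite strand of Il27, had a log2 fold change of -0.27 in this comparison (adjusted p = 0.062). The replicates of Il27 lay closer together than those of Il12b or Il23a, with a mean of 3.62 ± 0.981 CPM in CM (SD, n = 3).

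Ebi3, the beta chain of IL-27, was already 55.7 and 52.5 CPM in DMEM and was 144, 144 and 145 CPM in CM. Its log2 fold change was 1.41 (SE 0.15, adjusted p = 3.4e-06), a 2.67-fold increase, and its CM samples differed less from each other than those of any other member. Il12a, the alpha chain of IL-12, had 3, 5 and 7 counts in CM, or 0.167, 0.148 and 0.285 CPM, against 0.0295 and 0 CPM in DMEM. The CM mean of 0.2 CPM was at least 1.63-fold higher than the level of 3 counts in DMEM. When genes of low count were kept, Il12a gave an adjusted p of 0.038 in this comparison, and with edgeR's own filter on low counts 0.057, so that its rise was not a call under both filters.

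Cells received ruxolitinib with CM to ask what changes when JAK signaling is blocked in the presence of tumor factors. Il12b was 20.9, 63.3 and 60.1 CPM in CM + Rux, each value above all CM samples. Its mean was 48.1 ± 23.6 CPM (SD, n = 3) against 8.96 ± 9.11 in CM (SD, n = 3). The log2 fold change was 2.37 (SE 0.74, 95% interval 0.78 to 3.9), but the adjusted p over all genes was 0.096 and Il12b was not called. Among all genes, this comparison called 1.2% higher and 2.13% lower.

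The call on Il12b depended on the settings, among them whether the replicate number of the labels was in the model. Samples with the same number deviated from their group means together, and within each number Il12b was 9.42, 3.28 and 11.3-fold higher in CM + Rux than in CM (higher in 3 of 3 pairs). With the replicate number as a block, the log2 fold change was 2.49 (SE 0.49, adjusted p = 0.0043) and Il12b was called higher. The same model called more genes in all, 305 higher and 440 lower, against 149 and 263 without the block. Without CM replicate 2, the CM sample with the highest Il12b, the unblocked log2 fold change was 3.63 (adjusted p = 0.032). With no filter on low counts, the unblocked model also called Il12b higher (2.36, adjusted p = 0.00014).

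The other tested members were not called with ruxolitinib in either model. Il23a was 8.7, 45.5 and 10.1 CPM in CM + Rux, a range that overlapped CM, with a log2 fold change of 0.96 (SE 0.88, adjusted p = 0.73). Within replicate numbers it was 3.33, 1.79 and 2.31-fold higher, and with the block its log2 fold change was 1.16 (adjusted p = 0.12). Replicate 2 was the highest sample for Il23a in CM, CM + Rux and CM + Rux + IKK-16. Without CM + Rux replicate 2, the unblocked log2 fold change of Il23a was -0.25, opposite in sign.

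Il27 was 4.8, 6.73 and 5.14 CPM in CM + Rux, and every value was above the CM samples. Its log2 fold change of 0.61 (SE 0.28, 95% interval 0.013 to 1.2, adjusted p = 0.31) did not pass the test. Ebi3 was 131, 157 and 140 CPM in CM + Rux, and these values lay on both sides of the CM samples. Its log2 fold change was -0.01 (SE 0.13), with a 95% interval of -0.3 to 0.27, and the adjusted p was 0.98. The interval leaves room for a change of up to 0.3 on the log2 scale in either direction. Il12a was 0.97, 0.218 and 0.407 CPM in CM + Rux, which is 36, 9 and 8 counts, and this range overlapped CM.

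**Figure D2:**
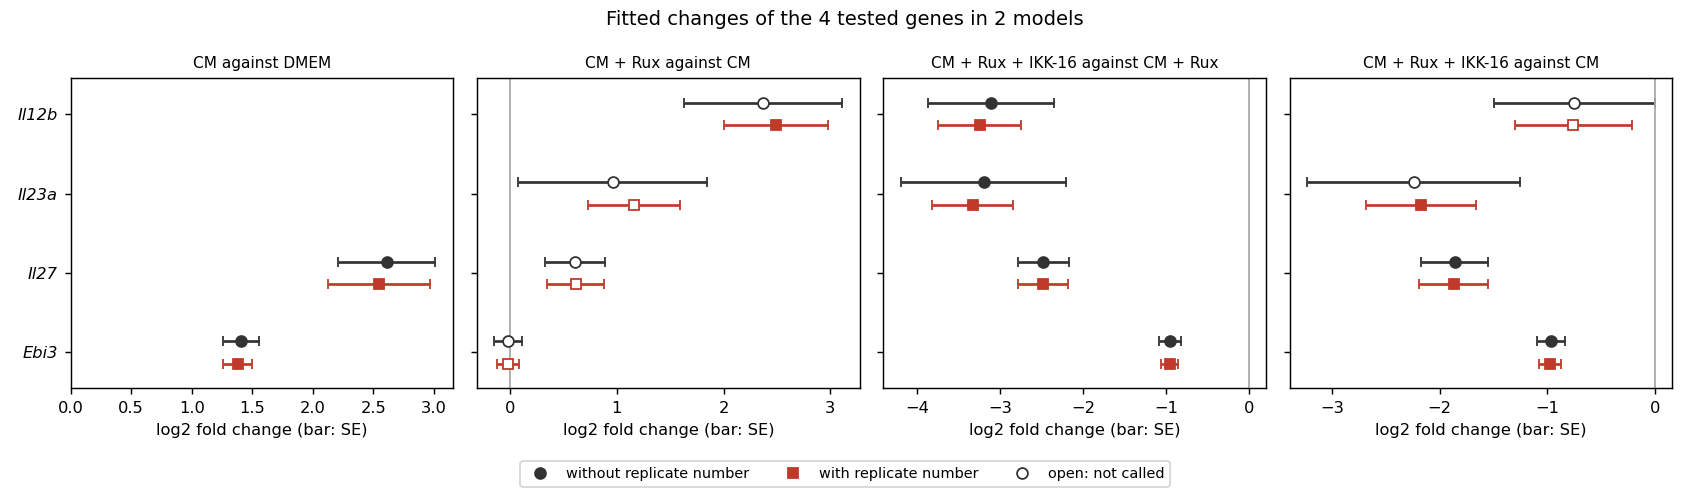
Log2 fold change with its SE (bars) of the 4 tested members in each of 4 comparisons, from the model without (circles) and with (squares) the replicate number; filled symbols are called, and the horizontal axes differ. Il12b and Il23a are not drawn for CM against DMEM, where DMEM was at or under 3 counts. Il12b with ruxolitinib is called in the blocked model (2.49) and not in the other (2.37), and all 4 members lie below 0 when IKK-16 was added.

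IKK-16 was added to CM and ruxolitinib to ask which of these transcripts depend on IKK activity. All 4 tested members were lower in CM + Rux + IKK-16 than in CM + Rux, where 3.66% of genes tested were called lower and 4.07% higher. This comparison and that of CM + Rux against CM share the CM + Rux samples, so a high or low value in those samples moves both. Il12b was 1.24, 8.22 and 7.33 CPM with IKK-16, all below the CM + Rux samples, with a log2 fold change of -3.11 (SE 0.76, adjusted p = 0.014), or 8.66-fold lower. Within replicate numbers the ratios were 16.9, 7.7 and 8.2-fold lower. Without CM + Rux + IKK-16 replicate 1, the sample with the lowest Il12b, the log2 fold change was -2.63 and the adjusted p 0.055, so the call was lost.

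Il23a was 0.154, 5.81 and 1.28 CPM with IKK-16, and each value was below the lowest CM + Rux sample. The log2 fold change was -3.2 (SE 1), or 9.16-fold lower, and the adjusted p of 0.049 was close to the threshold. Within replicate numbers Il23a was 56.3, 7.84 and 7.86-fold lower. The call was lost with DESeq2 (adjusted p = 0.071), in a fit of only the groups compared (adjusted p = 0.1), without CM + Rux replicate 2 (log2 fold change -1.99, adjusted p = 0.23) or 3 (-3.52, 0.051), and without CM + Rux + IKK-16 replicate 1 (-2.62, 0.14) or 3 (-2.9, 0.15). It was kept without CM + Rux + IKK-16 replicate 2, where the log2 fold change was -4.95 (adjusted p = 0.018). With the replicate block the log2 fold change was -3.33 and the adjusted p 0.00041.

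The IL-27 subunits were called lower in every setting tried. Il27 was 0.824, 1.38 and 0.815 CPM with IKK-16, with a log2 fold change of -2.48 (SE 0.31, adjusted p = 0.00025), or 5.56-fold lower. Over 12 alternative settings its adjusted p was at most 0.0029. Apobr, on the opposite strand, had a log2 fold change of -0.35 (adjusted p = 0.042). Ebi3 was 60, 84.7 and 77.5 CPM, with a log2 fold change of -0.95 (SE 0.13, adjusted p = 0.00053), or 1.93-fold lower, and its adjusted p was at most 0.0073 over the same 12 settings. The change of Ebi3 was thus the smallest of the 4 tested members on the log2 scale in this comparison. Il12a had 2, 4 and 5 counts with IKK-16, or 0.0515, 0.122 and 0.146 CPM, and these values lay below all CM + Rux samples. When genes of low count were kept, its log2 fold change was -2.32 (adjusted p = 0.02), and with edgeR's own filter the adjusted p was 0.046.

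The samples with both inhibitors were also compared with CM alone. In this comparison 6.13% of genes tested were called lower and 6.6% higher. Il27 was 3.64-fold lower than in CM, with a log2 fold change of -1.86 (SE 0.31, adjusted p = 0.00085), and Ebi3 was 1.95-fold lower, with a log2 fold change of -0.96 (SE 0.13, adjusted p = 2e-04). Neither gene overlapped between the groups. Il12b overlapped, with a log2 fold change of -0.75 (SE 0.75, 95% interval -2.4 to 0.87, adjusted p = 0.52), and without CM replicate 2 this value was 0.51, opposite in sign. Il23a also overlapped and was not called, with a log2 fold change of -2.24 (SE 0.99, adjusted p = 0.12). With the replicate block it was called lower, with a log2 fold change of -2.17 (adjusted p = 0.0056), and without CM + Rux + IKK-16 replicate 2 as well, at -4 (adjusted p = 0.03).

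Ruxolitinib without tumor medium gave no call on a member. No gene was called higher in DMEM + Rux than in DMEM (0% of the genes tested by the edgeR quasi-likelihood test, with 50 genes higher at an unadjusted p under 0.05), 0.97% were called lower, and the replicate block called 1 gene higher. Il12b had 1, 2 and 0 counts in DMEM + Rux, Il23a had 1 count in a single sample, and Il12a had 0 counts in every sample, so that no fold is given for these genes. Il27 was 0.738, 0.736 and 1 CPM, against 0.679 and 0.491 CPM in DMEM, with a log2 fold change of 0.47 (SE 0.43, adjusted p = 1). Ebi3 was 36.1, 52.2 and 49.8 CPM, each below the DMEM samples, with a log2 fold change of -0.23 (SE 0.15, 95% interval -0.55 to 0.089, adjusted p = 1).

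The difference between the effect of ruxolitinib in CM and its effect in DMEM was tested as an interaction, which called 0.234% of genes higher and 0.178% lower. It was 0.14 (SE 0.53, adjusted p = 1) for Il27 and 0.22 (SE 0.2, adjusted p = 0.92) for Ebi3, both on the log2 scale. For Il12b, Il23a and Il12a the DMEM groups were at or under 3 counts and no interaction is given.

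The samples labelled 2 h were compared with those labelled 4 h, both with CM and ruxolitinib. The comparison called 12.6% of all genes tested higher and 10.7% lower, and no member was called. Il12b was 12.3 and 51.9 CPM at 2 h (log2 fold change -0.61, SE 0.79, adjusted p = 0.57). Il23a was 23.5 and 25.1 CPM (0.16, SE 0.97, adjusted p = 0.91), both within the range of the 4 h samples. Il27 was 4.75 and 9.63 CPM (0.34, SE 0.3, adjusted p = 0.4), which takes in the whole 4 h range. Ebi3 was 135 and 133 CPM (-0.09, SE 0.15, 95% interval -0.41 to 0.22, adjusted p = 0.65). Il12a was 0.11 and 0.467 CPM. The 2 h samples carried replicate numbers 2 and 3 only. Within these numbers, Il12b at 2 h was 0.194 and 0.863-fold of its 4 h level, and Il23a was 0.516 and 2.49-fold. With the replicate block, Il12b had a log2 fold change of -1.15 (adjusted p = 0.093) and was not called. The dendritic cell markers summed to 8.83 and 12.8 CPM in the 2 h samples, led by Zbtb46 with a mean of 10.1 CPM, against 2.21 to 2.32 CPM in CM + Rux, and in each of these groups 1 of the 6 markers exceeded 1 CPM and 1 had no counts. Their part in the 2 h values was not tested.

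Group means do not all cover the same replicate numbers, since CM + Rux 2 h held only 2 and 3 and DMEM only 1 and 2. Ordered by group mean, Il12b ran from CM + Rux (48.1 CPM) through CM + Rux 2 h (32.1), CM (8.96) and CM + Rux + IKK-16 (5.6) to the DMEM groups, and each neighboring pair among the first 4 groups overlapped. Il23a ran from CM + Rux 2 h (24.3) through CM + Rux (21.4) and CM (10.8) to CM + Rux + IKK-16 (2.41), again with overlap between each neighboring pair of these groups. For both genes, the lowest IKK-16 sample was above every DMEM and DMEM + Rux sample. Il27 ran from CM + Rux 2 h (7.19) through CM + Rux (5.55), CM (3.62), CM + Rux + IKK-16 (1) and DMEM + Rux (0.826) to DMEM (0.585). Its CM samples overlapped neither neighbor, while the IKK-16 samples overlapped DMEM + Rux. Ebi3 was 144 ± 0.468 CPM in CM (SD, n = 3), 143 ± 12.8 in CM + Rux (SD, n = 3) and 134 ± 1.06 in CM + Rux 2 h (SD, n = 2). It then dropped to 74.1 ± 12.7 with IKK-16 (SD, n = 3), 54.1 ± 2.3 in DMEM (SD, n = 2) and 46 ± 8.67 in DMEM + Rux (SD, n = 3), with no overlap among these last 3 groups or between them and the others.

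The balance of subunit RNAs was computed in each sample as the level of the beta chain over that of the alpha chain, both per kilobase of exon. For IL-23, Il12b over Il23a was 0.972, 0.87 and 1.4 in CM and 2.75, 1.59 and 6.83 in CM + Rux. The subunits were thus at similar levels in CM, and every CM + Rux sample held more Il12b than Il23a. The ratio was 9.14, 1.62 and 6.54 with IKK-16 and 0.598 and 2.36 in CM + Rux 2 h. Both DMEM groups had too few counts for this ratio, and no ratio of subunits was tested.

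For IL-27, Ebi3 exceeded Il27 in every sample. Ebi3 over Il27 was 72.6 and 94.7 in DMEM and 37.6, 27.1 and 46.3 in CM. It was 24.2, 20.6 and 24.2 in CM + Rux, and 64.4, 54.5 and 84.2 with IKK-16. In DMEM + Rux it was 43.3, 62.7 and 44, which overlapped CM, and in CM + Rux 2 h it was 25.1 and 12.2. The excess of the beta chain RNA was smaller in each CM sample than in the DMEM samples, and larger in each sample with IKK-16 than in the CM samples. For IL-12, Il12b over Il12a ranged from 16.2 to 251 in the samples with over 3 counts of both, and the low counts of Il12a make these ratios imprecise.

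**Figure D3:**
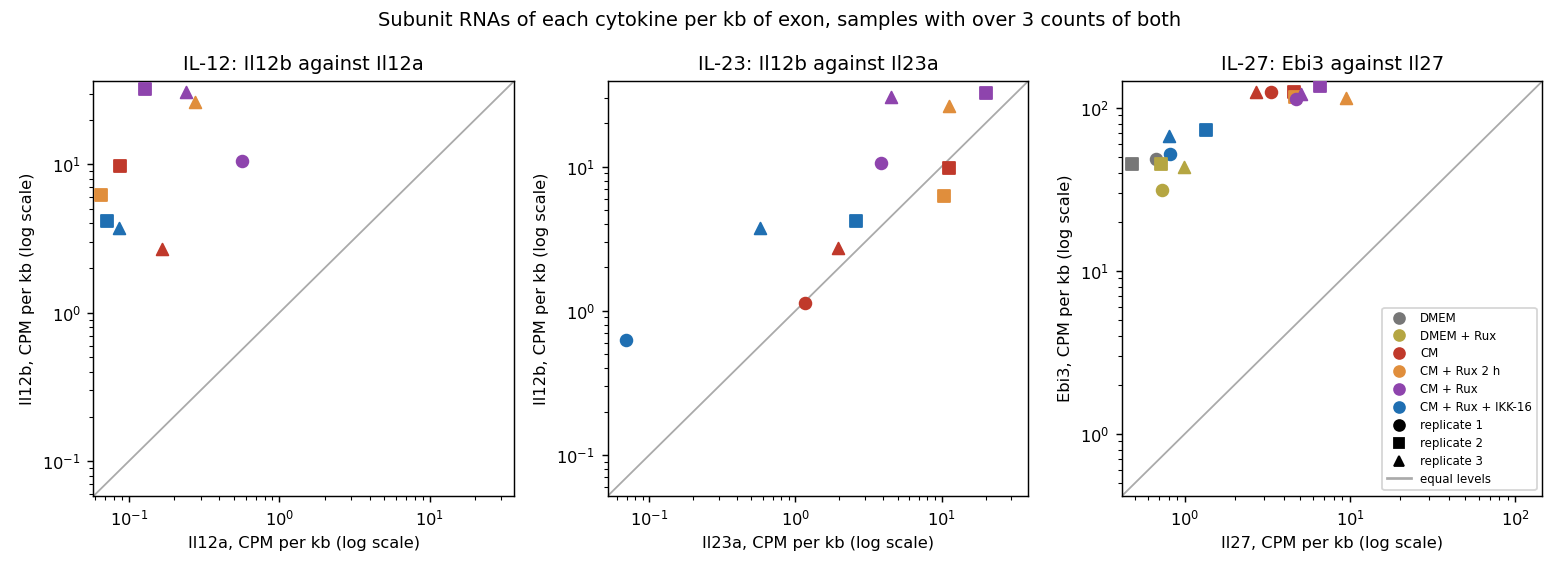
Level of the beta chain gene against that of its alpha chain gene (CPM per kb of exon, both axes log scale) for IL-12, IL-23 and IL-27, with 1 point for each sample that had over 3 counts of both; colors are groups, symbols replicate numbers, and the line marks equal levels. All IL-12 and IL-27 points lie above the line, and the CM points of IL-23 lie close to it (ratios 0.87 to 1.4).

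Over the 16 samples, the log2 levels of the tested members correlated, with Pearson's r between 0.87 for Il12b with Ebi3 and 0.94 for Il12b with Il23a. Spearman's rho ran from 0.75 for Il27 with Ebi3 and 0.76 for Il12b with Ebi3 to 0.93 for Il12b with Il23a. The samples share groups and replicate numbers and include the DMEM groups, where Il12b and Il23a had almost no counts, so the coefficients are descriptions. By Pearson's r, the tested genes most similar to Il12b were Tnf (r = 0.96), the gene of the cytokine TNF, then Dbn1 (0.957) and Crip2 (0.952). For Il23a they were Ccnyl1 (0.975), Nfkbiz (0.973), which encodes an NF-κB cofactor, and Slc25a17 (0.971). Those of Il27 were Rcan1 (0.977), Rnd1 (0.97) and Wac (0.954), and those of Ebi3 were Stau1 (0.974), Gm18445 (0.974) and Rhou (0.973).

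Receptors of the family and the kinases and STAT proteins they signal through were described by 10 genes, of which 9 were tested. For this list and those that follow, CM against DMEM called 20.9% of all genes tested higher and 24.1% lower. These shares were 1.2% and 2.13% with ruxolitinib in CM and 4.07% and 3.66% with IKK-16 added. They were 6.6% and 6.13% for both inhibitors against CM and 12.6% and 10.7% at 2 h. In CM against DMEM 4 were higher and 2 lower, with a median log2 fold change of 0.29 against -0.005 over all genes tested. The kinase gene Jak2 rose by 3.59 on the log2 scale (SE 0.15), Stat4, which transmits the IL-12 signal, by 2.59 (SE 0.38) and Stat3, which transmits the IL-23 signal, by 2.32 (SE 0.21). Il12rb2, the signaling chain of the IL-12 receptor, fell by 1.47 (SE 0.31, adjusted p = 9e-04), and Il6st, a shared chain of the IL-27 receptor, fell by 1.1 (SE 0.12, adjusted p = 3.9e-06). Il23r had at most 1 count in any sample.

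None of the 9 was called with ruxolitinib by edgeR or by DESeq2, in CM or in DMEM, and 3 in CM and 1 in DMEM had an unadjusted p under 0.05 with edgeR. The interaction called none of them by either tool, with 2 at an unadjusted p under 0.05. Adding IKK-16 to CM + Rux lowered 2 of the 9, Jak2 with -0.81 (SE 0.11) and Stat3 with -0.69 (SE 0.17), and the median of the 9 was -0.16 against -0.0019 over all genes tested. Against CM, both inhibitors lowered the same 2 genes, Stat3 with -1.01 (SE 0.17) and Jak2 with -0.91 (SE 0.11). The 2 h samples differed from the 4 h samples in Il12rb2, higher by 1.26 (SE 0.31), and in Stat3, which fell by 0.58 (SE 0.2). A fit of only the groups compared called none of the 9 lower at 2 h, so that the call on Stat3 was lost, while the replicate block also called Stat4 lower (-0.77 without the block, adjusted p 0.077 without and 0.0074 with it).

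All 9 transcription factor genes known to activate members of the family were tested. In CM 5 were higher than in DMEM and 1 was lower (20.9% and 24.1% of all genes tested), with a median of 0.56. The leading changes were those of Cebpb (2.84, SE 0.24), the NF-κB subunit gene Nfkb1 (2.36, SE 0.14) and Nfkbiz (1.76, SE 0.36), and Irf1 was lower (-0.69, SE 0.24). Nfkbiz had a mean of 418 ± 190 CPM in CM and 124 ± 4.18 CPM in DMEM (SD, n = 3 and n = 2). Ruxolitinib in CM lowered 1 of the 9, Irf8, a factor of the myeloid lineage that activates Il12b, with a log2 fold change of -0.90 (SE 0.096, adjusted p = 0.00012). Irf8 had a mean of 282 CPM in CM and 151 CPM in CM + Rux. In the same edgeR test, Rel was higher (0.486, SE 0.12, adjusted p = 0.029) and Irf5 lower (-0.489, SE 0.073, adjusted p = 0.0014). Both fell short of the fold change threshold of 0.5 and were not called. In the same comparison the Il12b mean was higher, though not called in the main model, and a link of Il12b to these genes was not tested. In DMEM none of the 9 was called with ruxolitinib in the main edgeR model or by DESeq2 (4 had an unadjusted p under 0.05 with edgeR). With no filter on low counts, edgeR called 1 of them lower there. Irf8 had an interaction of -0.97 (SE 0.14, adjusted p = 0.012). The blocked model also called the interaction of Rel (0.68 without the block, adjusted p 0.12 without and 0.0053 with it) and of Irf1 (1.14, adjusted p 0.16 without and 0.011 with it).

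With IKK-16 added, 1 activating factor was called lower, the NF-κB subunit gene Rel (-0.52, SE 0.12, adjusted p = 0.0091), and the median of the 9 was -0.32. Nfkb1 (-0.481, adjusted p = 0.01), Spi1 (-0.324, 0.014), Irf8 (-0.319, 0.038) and Rela (-0.32, 0.039) were also lower in this edgeR test. Their changes fell short of the 0.5 threshold, so they were not called. With the replicate block 3 were called lower, which added Nfkbiz (-0.92 without the block, adjusted p 0.061 without and 0.007 with it) and Irf1 (-0.66, adjusted p 0.06 without and 0.0091 with it). Against CM, both inhibitors lowered only Irf8 of the 9 (-1.22, SE 0.096). The 2 h samples were higher than the 4 h samples in Irf1 (1.42, SE 0.24) and Rel (0.93, SE 0.13).

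Genes known to restrain members of the family formed a list of 6, and all were tested. CM raised 4 of them and lowered 1 (20.9% and 24.1% of all genes tested), with a median of 3.5. Il10, the gene of a cytokine that suppresses Il12b, rose by 4.77 on the log2 scale (SE 0.95), Nfil3, a repressor, by 4.38 (SE 0.35) and Socs1, an inhibitor of JAK signaling, by 4.32 (SE 0.18). Atf3, a repressor, fell by 0.87 (SE 0.2).

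None of the 6 was called with ruxolitinib in CM in the main edgeR model, where 3 had an unadjusted p under 0.05. DESeq2 and a fit of only the groups compared each called 1 lower, and edgeR with no filter on low counts called 1 higher and 1 lower. With the replicate block Il10 was called higher (1.95 without the block, adjusted p 0.068 without and 0.00044 with it) and Maf, a factor that represses Il12b, lower (-0.76, adjusted p 0.063 without and 1e-04 with it). Il10 was 17.7 ± 11.2 CPM in CM and 69.3 ± 44.4 CPM in CM + Rux (SD, n = 3 each). IKK-16 lowered 3 of the 6, Il10 (-3.04, SE 0.59, adjusted p = 0.0041), Socs1 (-1.56, SE 0.12) and Bcl3 (-0.83, SE 0.17), with a list median of -0.77. Il10 had the largest decrease of the 3, 8.55 ± 7.29 CPM being left (SD, n = 3). The block added Nfil3 (-0.71 without it, adjusted p 0.076 without and 0.02 with it). Against CM, both inhibitors lowered 4 of the 6, led by Socs1 (-1.83, SE 0.12), to which the block added Il10 (-1.09 without it, adjusted p 0.19 without and 0.012 with it). Socs1 was also lower with ruxolitinib in DMEM (-1.76, SE 0.24, adjusted p = 0.00098), and its interaction was 1.5 (SE 0.27, adjusted p = 0.03). Its fall in DMEM rests on 23 to 30 counts in DMEM and 4 to 13 in DMEM + Rux. A fit of only the groups compared did not call that fall. The block also called the interaction of Maf (-0.83 without it, adjusted p 0.4 without and 0.0067 with it). In the 2 h samples Socs1 and Atf3 were lower than at 4 h (-1.8, SE 0.15, and -1.37, SE 0.21). None of the 6 was called higher at 2 h in the main model, and with the block Il10 was (1.07 without the block, adjusted p 0.16 without and 0.015 with it). With no filter on low counts, 1 of the 6 was also called higher.

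**Figure D4:**
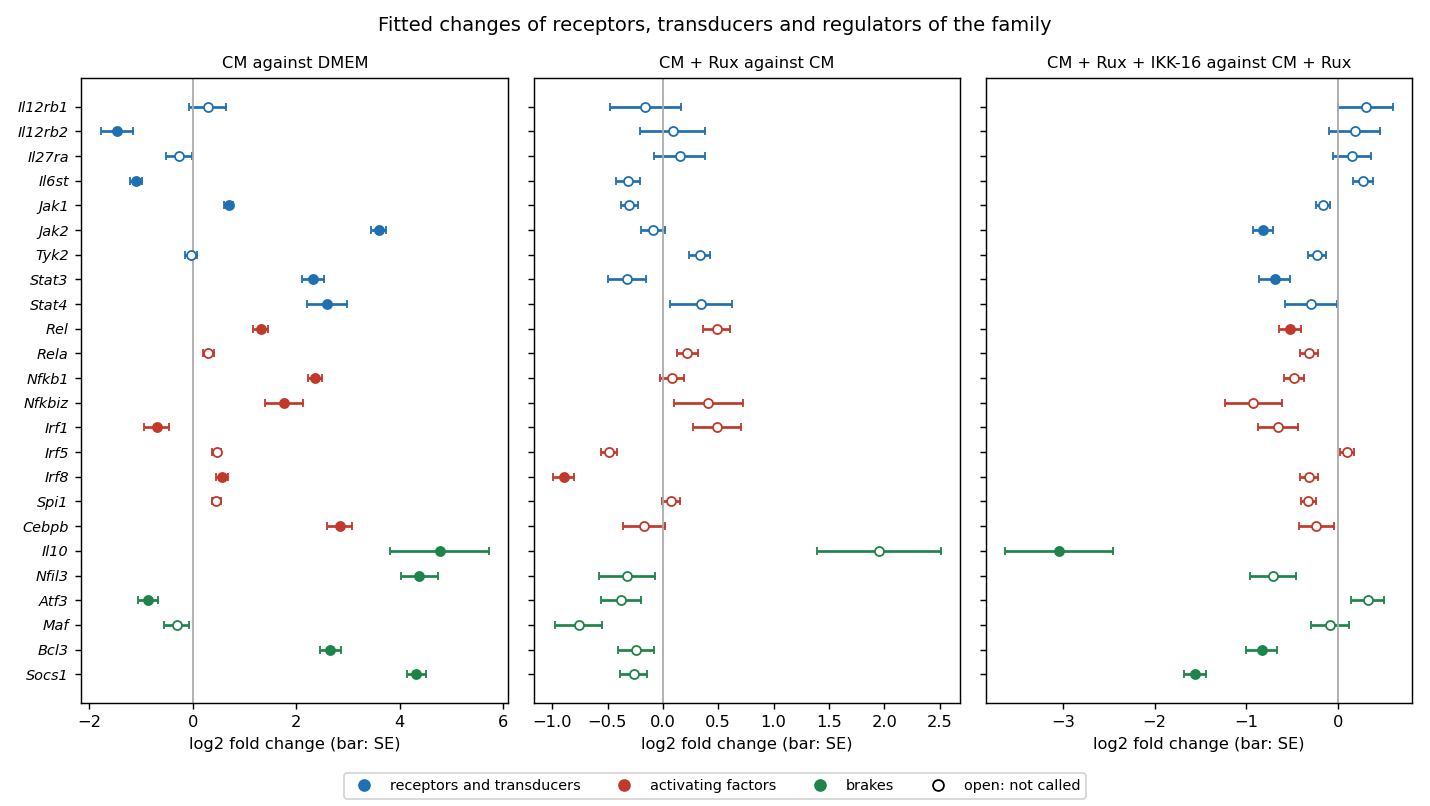
Log2 fold change with its SE (bars) of the 24 tested receptor, signaling, activating and restraining genes in 3 comparisons, colored by list; filled symbols are called, and the horizontal axes differ. The calls in CM go both ways, ruxolitinib lowers Irf8, and the 6 genes called with IKK-16 all lie below 0.

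The genes that IL-12 and IL-23 switch on in T and NK cells were looked for as a check on other cells. Of 5 such genes, Ifng and Il17a had 0 counts in every sample, Il22 at most 1, Il17f at most 2 and Tbx21 at most 3, and none was tested. Among markers of other cells, the leading neutrophil gene S100a8 had a mean of 1.9 CPM in CM, 1.45 in CM + Rux and 1.09 with IKK-16 against 0.246 in DMEM, while 2 of the 5 neutrophil markers had no counts in CM. The epithelial markers, which could show RNA of 4T1 cells, summed to 0.692 to 1.45 CPM in CM and 0 to 0.118 CPM in DMEM. In CM they were led by Cdh1, with a mean of 0.618 CPM against 0.0411 in CM + Rux. Krt18 went the other way, with 0.2 CPM in CM and 0.273 in CM + Rux. Krt8 had 0.199 and 0.0969 CPM and Epcam 0.042 and 0.00898 CPM in the same groups. The sums of the epithelial markers were 0.121 to 0.835 CPM in CM + Rux, 0.234 to 0.304 in CM + Rux 2 h and 0.183 to 0.721 with IKK-16. The part of these markers in the rise of the family was not tested. Fibroblast markers, led by Col1a1, summed to 3.14 to 11.1 CPM in all samples, with ranges that overlapped between DMEM and CM.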

How the data were processed

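Stranded RNA-seq libraries were trimmed with Trimmomatic 0.33, aligned to GRCm38 with HISAT2 2.1.0 and counted with featureCounts 1.6.2 by the authors, per the submitters' processing notes. The deposited values are raw counts per gene by strand. Gene symbols came from GENCODE M21 by gene ID (55141 of 55487 matched), and promoters from RefSeq. The test took the 12372 genes that exceeded 1 CPM in 2 samples or more. Relative log expression (RLE) factors scaled totals. All 16 samples entered 1 model of 6 groups in edgeR 4.0.16 (R 4.3.3, quasi-likelihood test), with Benjamini-Hochberg adjustment over all genes tested, and the code was tested on simulated data. Relative to totals alone, RLE shifted log2 fold changes by 0.31 for the CM response and by -0.11 for both inhibitors set against CM, and by less than 0.1 elsewhere. Same-numbered samples correlated (r of deviations from group means 0.47 to 0.72 with 3 pairs), so the replicate number was taken to pair them. Alternatives included DESeq2 1.42.0, TMM, other filters and each sample left out. Named were the members, the 3 genes most correlated with each (log2 of CPM + 0.5), at most the 3 largest calls per list and comparison, and leading markers. Nfkbiz, Irf1, Il10, Maf, Rel, Stat4, Nfil3, Irf5, Nfkb1, Rela, Irf8 and Spi1, where not called, were named after their values were seen. So were Apobr, Krt18, Krt8, Epcam and the T and NK cell genes. Some genes of the lists are not reported here. Members and lists were chosen with earlier results of these data known.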

Additional observations from a re-analysis of the deposited data

Results flagged for a closer look

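The effect of ruxolitinib in CM differed from its effect in DMEM, by the interaction term of the edgeR quasi-likelihood test, for 2 of the 24 regulator genes tested in the model without the replicate block. Over all genes tested, that model called 0.234% higher and 0.178% lower. No member of the family was called in either model, where the term could be given for Il27 and Ebi3. The term is the log2 fold change of ruxolitinib in CM minus that in DMEM. For Irf8 it was -0.97 (adjusted p = 0.012), and mean levels were 191 CPM in DMEM, 201 in DMEM + Rux, 282 in CM and 151 in CM + Rux. For Socs1 it was 1.5 (adjusted p = 0.03), and mean levels were 0.913 CPM in DMEM, 0.255 in DMEM + Rux, 18.3 in CM and 15.2 in CM + Rux. Counts of Socs1 were low without tumor medium, 23 to 30 in DMEM and 4 to 13 in DMEM + Rux. The model with the block called 3 more regulator genes, Rel (0.68 without the block, adjusted p 0.12 without and 0.0053 with it), Irf1 (1.14, adjusted p 0.16 without and 0.011 with it) and Maf (-0.83, adjusted p 0.4 without and 0.0067 with it).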

How the results depend on the processing

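Of 288 recomputed log2 fold changes of members, 265 kept their direction and their side of the threshold. With no filter on low counts, Il12b with ruxolitinib in CM was called (2.36, adjusted p = 0.00014), and so was Il23a for CM + Rux + IKK-16 against CM (-2.24, adjusted p = 0.0036). That setting called 269 genes higher and 416 lower with ruxolitinib in CM, and 213 and 136 in the interaction. With the replicate block the corresponding values were 2.49 for Il12b and -2.17 for Il23a, with 305 and 440 genes, 247 and 197 genes in the interaction, and 1 gene higher with ruxolitinib in DMEM. The block changed no other call on a member. Il23a for CM + Rux + IKK-16 against CM + Rux was not called in a fit of only the groups compared (-3.18, adjusted p = 0.1) or with DESeq2 (-3.15, adjusted p = 0.071), and DESeq2 called 149 and 88 genes in the interaction. The cause of these changes was not tested.

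With no fold change threshold, the counts were 3883 higher in CM against DMEM, 225 higher with ruxolitinib in CM, 831 higher and 947 lower with IKK-16 against CM + Rux, 1364 and 1493 against CM, and 2471 lower at 2 h. Over all the pathway lists, that setting called 1 gene higher and 3 lower with ruxolitinib in CM, 10 lower with IKK-16 against CM + Rux, 11 lower against CM, and 6 higher at 2 h. No filter, the block, DESeq2 and a fit of only the groups compared each called 2 list genes lower with ruxolitinib in CM. No filter and the block each called 1 higher there, and 3 higher and 2 lower in the interaction, where DESeq2 called 3 higher. Ruxolitinib in DMEM lowered 3 list genes with no filter and 0 in a fit of only the groups compared.

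Leaving out each sample in turn, Il12b ranged from 1.94 to 3.63 with ruxolitinib in CM, from -3.5 to -2.63 with IKK-16 against CM + Rux and from -1.17 to 0.51 against CM. Il23a ranged from -0.25 to 2.61, from -4.95 to -1.99 and from -4 to -0.58 in the same order. Ebi3 with ruxolitinib in CM ranged from -0.0858 to 0.0436. At 2 h against 4 h the ranges were -1.97 to 0.11 for Il12b (0.107 without CM + Rux 2 h replicate 2), -0.21 to 1.37 for Il23a (-0.214 and -0.162 without CM + Rux replicate 1 or 3) and -0.23 to 0.79 for Il27. The interaction of Il27 ranged from -0.13 to 0.39 (-0.0245 without CM replicate 3, -0.0268 without CM + Rux replicate 2). None of the values that changed sign was called. Counts of all genes ranged from 82 to 164 higher and 161 to 322 lower with ruxolitinib in CM, from 9 to 84 higher and 5 to 34 lower in the interaction, and from 0 to 6 higher with ruxolitinib in DMEM. A group left with 1 sample was assumed to vary like the others.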
